A study of Homo sapiens with 6 samples.

Results

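The galectins are lectins, proteins that bind sugars, and they recognise galactose in the glycans of other proteins. The genes described here are LGALS1, LGALS3, LGALS8 and LGALS9, which encode galectin-1, galectin-3, galectin-8 and galectin-9, and LGALS3BP, which encodes a secreted glycoprotein that galectin-3 binds. These 5 genes were taken by their symbols alone, out of 21503 genes with deposited counts and 60233 with deposited TPM values, and no measured value entered the rule. All 5 were in both tables, and all 5 passed the filter on low counts.

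Galectins are made without a signal peptide and act both inside the cell and, after release by an unconventional route, on its surface. Outside the cell they cross-link receptors that carry N-acetyllactosamine, a unit of galactose and N-acetylglucosamine found on branched N-glycans. Inside the cell galectin-3, galectin-8 and galectin-9 gather on damaged lysosomes or endosomes whose inner glycans have become exposed. Galectin-1 is a dimer of 1 kind of sugar-binding domain, galectin-3 joins its domain to a flexible tail, and galectin-8 and galectin-9 hold a pair of different domains in 1 chain. The branched glycans they bind are built in the Golgi from precursors trimmed earlier in the endoplasmic reticulum, where GANAB acts.

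RNA-seq was made in bulk from UMUC3, a human cell line from a bladder carcinoma, after 14 days of growth in the bladders of C57 nude mice, which lack a thymus and have few mature T cells. The compared groups were UMUC3 with GANAB knockdown (3 libraries) and control UMUC3 (3 libraries), where GANAB encodes the catalytic subunit of glucosidase II, the enzyme that trims glucose from new N-glycans. All 6 libraries came from cells placed in the mouse bladder, with no other agent named. The sources used here do not say how GANAB was lowered, whether the knockdown cells were a clone, what the control cells carried or how many animals gave each library. The p-values therefore measure the spread between these samples alone, and that spread may be technical. In bulk samples fewer cells of a type and less RNA per cell cannot be told apart.

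Knockdown libraries held 36619291 to 40039584 estimated counts and control libraries 11737837 to 36381218. GANAB stood at 231, 238 and 231 CPM (counts scaled by TMM to libraries of equal size) in the knockdown libraries, against 685, 825 and 661 CPM in the controls, and fell to 32.2% of control (edgeR log2 fold change -1.63, SE 0.141, adjusted p = 0.00239). Libraries of a group differed by a biological coefficient of variation of 10.7% in the knockdown and 52.3% in the controls. Control library 1 stood apart, with 29.2% of its counts from mitochondrial ribosomal RNA against 0.928% to 2.43% in the other 5 libraries. Among markers of a bladder carcinoma line, VIM (5501 to 5656 CPM in the knockdown and 2193 to 3376 CPM in controls), KRT8 (145 to 157 and 80.7 to 165 CPM) and KRT18 (182 to 201 and 131 to 248 CPM) had the highest levels of 12 markers listed. The other 7 with counts, GATA3, UPK1B, UPK2, PPARG, KRT5, KRT7 and KRT19, had means of 2.56 to 6.57 CPM in the knockdown and 0.552 to 12.3 CPM in controls, and UPK3A and KRT20 were listed at 0 in all 6 libraries.

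LGALS9 differed most between the groups and was the only one of the 5 genes called (edgeR, adjusted p under 0.05). Over all genes tested 8.31% were called, 4.59% higher and 3.72% lower in the knockdown, and a count of 1 among 5 genes is no result about the family. An unadjusted p under 0.05 was reached by 26.0% of all genes and by 2 of the 5, LGALS9 and LGALS3. LGALS1 and LGALS8 had log2 fold changes of -0.16 and 0.01, and LGALS3 and LGALS3BP had log2 fold changes of 0.82 and 0.57 that missed the threshold. With edgeR 0 of the 5 genes were called lower, and 0 had an unadjusted p under 0.05 in that direction. DESeq2 called 2 of the 5, LGALS9 and LGALS3, both higher in the knockdown, where it called 17.5% of all genes, 9.07% higher and 8.4% lower.

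The promoters of LGALS9, LGALS3BP and LGALS3, the members with the largest log2 fold changes, are printed because LGALS9 and LGALS3BP are known as interferon-inducible genes and interferon response genes are described further on. Each is the RefSeq window (GRCh38.p14) of 250 bases before to 50 after the start of transcription, 5′ to 3′ on the strand of the gene. Capitals mark a match to GAAANNGAAA, the core of the interferon-stimulated response element, which was searched on both strands.
LGALS9, chr17:27630938-27631237, plus strand: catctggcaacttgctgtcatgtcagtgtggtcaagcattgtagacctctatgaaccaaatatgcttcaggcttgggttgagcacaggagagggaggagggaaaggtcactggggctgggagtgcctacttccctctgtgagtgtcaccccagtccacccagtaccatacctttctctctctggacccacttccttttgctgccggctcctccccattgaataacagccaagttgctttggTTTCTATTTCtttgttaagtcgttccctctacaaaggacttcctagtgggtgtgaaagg
LGALS3BP, chr17:78979874-78980173, minus strand: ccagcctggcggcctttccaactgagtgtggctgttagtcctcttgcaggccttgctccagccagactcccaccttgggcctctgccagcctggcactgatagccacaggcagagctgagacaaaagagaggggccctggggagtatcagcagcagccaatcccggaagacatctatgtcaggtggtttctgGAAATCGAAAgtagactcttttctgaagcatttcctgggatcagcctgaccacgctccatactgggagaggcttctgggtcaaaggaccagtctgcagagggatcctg
LGALS3, chr14:55129002-55129301, plus strand: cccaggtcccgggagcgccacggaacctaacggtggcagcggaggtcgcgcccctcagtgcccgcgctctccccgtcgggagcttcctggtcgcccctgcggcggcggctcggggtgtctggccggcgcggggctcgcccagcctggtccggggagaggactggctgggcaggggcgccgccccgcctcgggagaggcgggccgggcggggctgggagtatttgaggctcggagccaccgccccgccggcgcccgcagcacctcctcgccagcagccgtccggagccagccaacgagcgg

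The LGALS9 window held 1 match, TTTCTATTTC, which is the motif read on the opposite strand, at window bases 242 to 251, where base 251 is the first transcribed base. The LGALS3BP window held 1 match, GAAATCGAAA, at bases 193 to 202. No match was found in the LGALS3 window or in the 3 windows of LGALS8, and windows were matched by symbol for 4 of the 5 genes, all but LGALS1. Of 35116 promoter windows of the same length, 3.57% held the motif. In the interferon response list it was in 16 of 25 windows, from 12 of the 18 genes with a window. The gamma-activated site TTCNNNGAA, searched on both strands, was in none of the windows of the members and in 7.66% of all windows. The 2 motifs differ in letters, and a match describes the window only.

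LGALS9 (ENSG00000168961) lies on chromosome 17 from 27629798 to 27649560 on the plus strand (GRCh38), with 16 annotated transcripts. It stood at 24.1, 20.9 and 21.3 CPM in knockdown libraries 1, 2 and 3, against 2.06, 0.683 and 3.05 CPM in control libraries 1, 2 and 3. Every knockdown library lay above every control library, as 21.9% of all genes tested did. The mean was 22.1 ± 1.77 CPM in the knockdown and 1.93 ± 1.19 CPM in the controls (SD, n = 3 each). LGALS9 rose 11.7-fold in the knockdown (edgeR log2 fold change 3.55, SE 0.468, adjusted p = 0.00847). A rise of at least that fold was seen in 0.993% of all genes tested, and in 0.525% together with an adjusted p under 0.05.

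The control levels of LGALS9 rest on few reads. Its estimated counts were 972, 819 and 905 in the knockdown libraries, against 56, 13 and 37 in the controls. Counting error alone was 3.21% to 3.49% of the value in the knockdown libraries and 13.4% to 27.7% in the controls, the largest in control library 2. The call also depended on the number of knockdown libraries, with an edgeR adjusted p of 0.0690, 0.0612 and 0.0662 without knockdown library 1, 2 or 3 and log2 fold changes of 3.47, 3.58 and 3.57. Without control library 1, 2 or 3 the adjusted p was 0.0327, 0.000153 and 0.0112. The share of all genes called moved in the same way, being 0.311%, 0.575% and 0.44% without knockdown library 1, 2 or 3 and 7.89%, 27.7% and 8.66% without control library 1, 2 or 3.

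On the TPM scale, which is per length, LGALS9 stood at 20.5, 18.9 and 20.0 TPM in the knockdown libraries, against 1.27, 1.20 and 3.00 TPM in the controls. Ranked by TPM within a library, it was gene 5534, 5990 and 5600 in the knockdown libraries, and gene 13442, 14164 and 12085 in the controls. The step between the groups was thus seen in level and in rank, with no overlap in either. In the annotation, 22.7% of the 31-base words of LGALS9 transcripts were also in other genes, 16.2% in LGALS9C, 8.78% in LGALS9B and 4.64% in the pseudogene LGALS9DP, which are its near-copies. LGALS9C and LGALS9DP were listed at 0 TPM in all 6 libraries, and LGALS9B at 0.275 TPM in knockdown library 1 and at 0 in the other 5. How reads were split between LGALS9 and these copies is uncertain. AC015688.4, which overlaps LGALS9 on the same strand, was listed at 0 TPM in all 6 libraries.

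**Figure D1:**
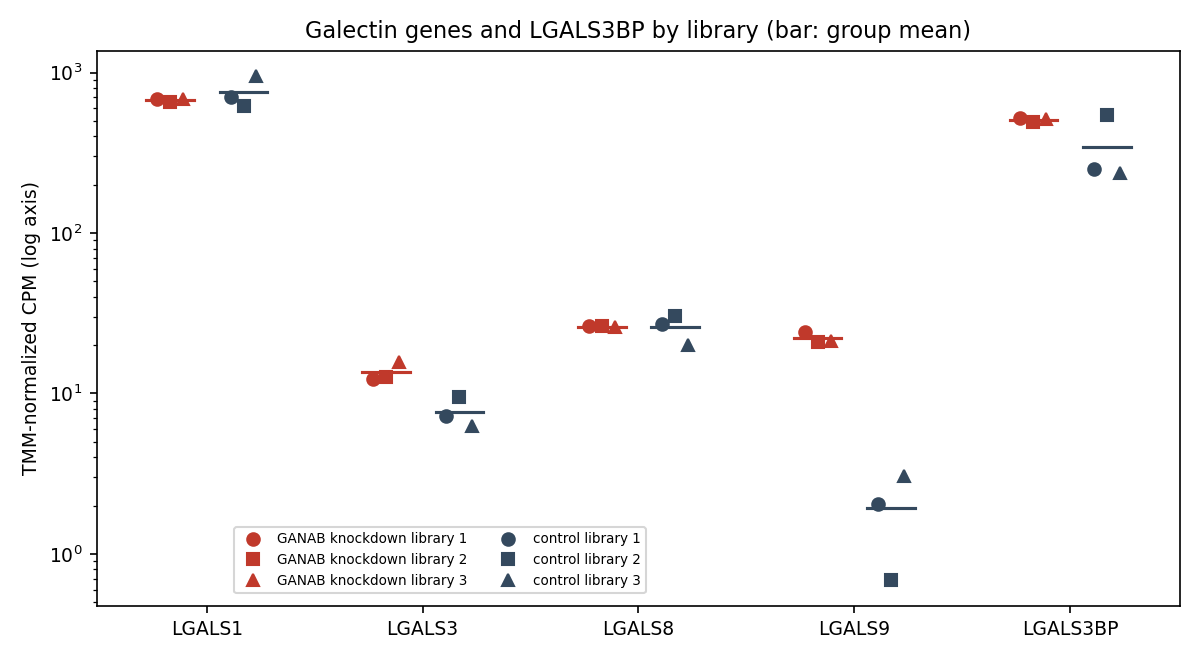
TMM-normalized CPM (log axis) of the 5 genes in each library, with GANAB knockdown in red on the left of each pair, control in dark blue on the right, and a bar at the group mean. LGALS9 and LGALS3 show no overlap between the groups, and 21.9% of all genes tested were higher in the knockdown without overlap. LGALS9 is at 20.9 to 24.1 CPM in the knockdown against 0.683 to 3.05 CPM in controls. Control library 2 is the high control point of LGALS3BP at 541 CPM.

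LGALS3 encodes galectin-3, the galectin with a flexible tail that lets it form lattices on the cell surface, and it lies on chromosome 14 from 55124110 to 55145413 on the plus strand (ENSG00000131981). It stood at 12.3, 12.7 and 15.6 CPM in the knockdown libraries, against 7.28, 9.51 and 6.26 CPM in the controls. The groups did not overlap, and 21.9% of all genes tested were higher in the knockdown without overlap. The gap between the nearest libraries, knockdown library 1 and control library 2, was smaller than for LGALS9. The mean was 13.6 ± 1.82 CPM in the knockdown and 7.68 ± 1.67 CPM in the controls (SD, n = 3 each). The 1.76-fold difference missed the threshold (edgeR log2 fold change 0.82, SE 0.236, adjusted p = 0.0751). It passed with DESeq2 (log2 fold change 0.78, adjusted p = 0.0228) and with edgeR without control library 2 (1.00, adjusted p = 0.00894). Over the 17 alternatives the log2 fold change of LGALS3 stayed positive, at 0.64 to 1.01.

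LGALS3BP, the galectin-3 ligand also known as 90K, lies on chromosome 17 from 78971238 to 78980109 on the minus strand (ENSG00000108679). It stood at 521, 491 and 512 CPM in the knockdown libraries, against 250, 541 and 238 CPM in the controls. The groups overlapped through control library 2 alone, which was above every knockdown library. With all libraries the difference missed the threshold (edgeR log2 fold change 0.57, SE 0.313, adjusted p = 0.305). Without control library 2 it was 1.06 with an edgeR adjusted p of 0.000224, where 27.7% of all genes were called, and without control library 1 or 3 it was 0.34 or 0.31 with an adjusted p of 0.568 or 0.574. With limma-voom and sample quality weights it was 0.95 (adjusted p = 0.000588), where 19.1% of all genes were called, 8.76% higher and 10.4% lower.

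Control library 2 also held the highest summed level of macrophage markers, mostly through CD68. The summed level of the 6 macrophage markers with counts, of 11 listed, was 74.3 to 75.7 CPM in the knockdown libraries, against 119, 294 and 88.1 CPM in control libraries 1, 2 and 3. Most of it was CD68, a lysosomal protein abundant in macrophages and also made by other cells, at 51.6 to 52.3 CPM in the knockdown libraries, against 96.0, 255 and 66.8 CPM in the controls. Of the 4 macrophage markers tested, ADGRE1 was highest in control library 2 as well (36.9 CPM), while LYZ was highest in control library 1 (4.52 CPM). CSF1R was lower in control library 2 (0.105 CPM) than in every knockdown library (0.471 to 0.917 CPM). The complement genes C1QB and C1QC, which define tissue macrophages, were listed at 0 TPM in all 6 libraries. The part of these markers in the LGALS3BP values was not tested.

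LGALS1, which encodes galectin-1, was the most abundant of the family by far and lies on chromosome 22 from 37675608 to 37679806 on the plus strand (ENSG00000100097). It stood at 687, 659 and 687 CPM in the knockdown libraries, against 707, 615 and 952 CPM in the controls. The control libraries lay on both sides of the knockdown libraries. The mean was 678 ± 16.3 CPM in the knockdown and 758 ± 174 CPM in the controls (SD, n = 3 each), and the difference was not called (edgeR log2 fold change -0.16, SE 0.182, adjusted p = 0.638). In TPM it stood at 2316, 2346 and 2355 in the knockdown libraries, against 1581, 2175 and 3356 in the controls, with control library 1, the library rich in mitochondrial RNA, the lowest. On log2(TPM + 1) the log2 fold change had the other sign, at 0.05, and with TPM rescaled without mitochondrial genes it was -0.05. LGALS1 shared 0 of its 1151 31-base words with other genes and overlaps none.

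LGALS8 encodes galectin-8, which recruits the autophagy receptor NDP52 to damaged vesicles, and lies on chromosome 1 from 236518000 to 236552981 on the plus strand (ENSG00000116977). It stood at 26.2, 26.2 and 25.8 CPM in the knockdown libraries, against 27.3, 30.4 and 19.9 CPM in the controls. The controls again lay on both sides of the knockdown libraries, and the difference was not called (edgeR log2 fold change 0.01, SE 0.185, adjusted p = 0.981). Its sign was negative in 4 of 17 alternatives, 3 of them another scaling, tool or unit. LGALS8 overlaps 4 genes on the opposite strand, among them HEATR1, a ribosome biogenesis gene. Of the 31-base words of LGALS8, 20.2% were also in HEATR1. HEATR1 had a log2 fold change of -0.23 (edgeR adjusted p = 0.474). No source used here says whether the counting used strand, so reads of LGALS8 and of its opposite-strand neighbours may not be told apart.

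**Figure D2:**
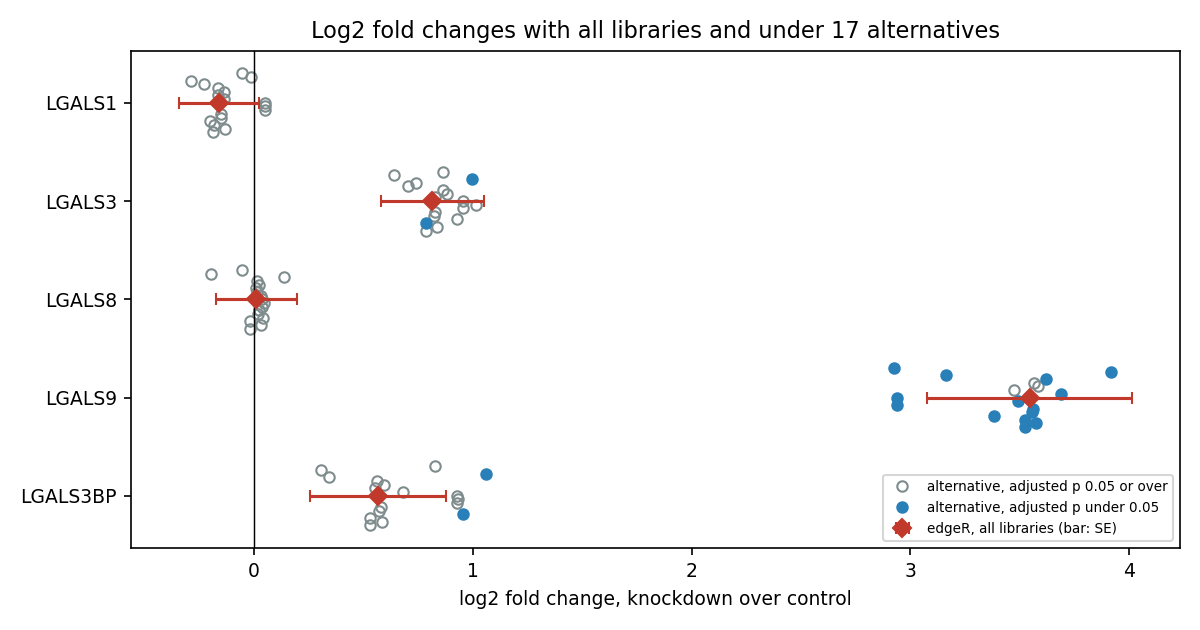
Log2 fold change of the 5 genes, knockdown over control, from edgeR with all libraries (red diamond, bar 1 SE) and under 17 alternatives (circles, filled where the adjusted p was under 0.05). LGALS9 stays between 2.93 and 3.92 and is filled in 14 of 17 alternatives, LGALS3 and LGALS3BP are filled in 2 each, and LGALS1 and LGALS8 in 0.

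Set in order by TPM, the knockdown libraries had LGALS1 first (2339 ± 20.3 TPM, SD, n = 3), then LGALS3BP (353 ± 8.09 TPM), LGALS3 (22.1 ± 3.09 TPM), LGALS9 (19.8 ± 0.849 TPM) and LGALS8 (13.2 ± 2.74 TPM). In the controls the order was LGALS1 (2371 ± 904 TPM, SD, n = 3), LGALS3BP (209 ± 128 TPM), LGALS8 (13.3 ± 4.84 TPM), LGALS3 (11.2 ± 3.55 TPM) and LGALS9 (1.82 ± 1.02 TPM). LGALS9 was level with LGALS3 in the knockdown, where their ranges overlapped (18.9 to 20.5 TPM and 20.2 to 25.6 TPM), and last by a clear gap in the controls. LGALS8 and LGALS3 overlapped in the controls, at 7.89 to 17.3 TPM and 8.28 to 15.1 TPM. The other neighbours in each order did not overlap.

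Ratios between members within a library do not depend on how libraries are scaled to each other. The TPM of LGALS9 over that of LGALS3 was 1.02, 0.924 and 0.781 in the knockdown libraries, against 0.154, 0.0790 and 0.298 in the controls. The TPM of LGALS9 over that of LGALS8 was 1.71, 1.69 and 1.23 in the knockdown libraries, against 0.161, 0.0692 and 0.206 in the controls. Neither ratio overlapped between the groups, so LGALS9 stood higher against both other minor galectins in every knockdown library. LGALS3 over LGALS8 was 1.57 to 1.83 in the knockdown libraries, against 0.691 to 1.05 in the controls. LGALS3BP over LGALS1 was 0.147 to 0.155 in the knockdown libraries, against 0.0677, 0.162 and 0.0497 in the controls, with the groups again overlapping through control library 2.

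As shares of the summed TPM of the 4 galectins, LGALS1 made up 97.8%, 97.9% and 97.4% in the knockdown libraries, against 98.9%, 98.5% and 99.2% in the controls. LGALS9 made up 0.866%, 0.787% and 0.829% in the knockdown libraries, against 0.0797%, 0.0541% and 0.0887% in the controls, a difference of 0.753 percentage points. LGALS3 made up 0.852%, 0.851% and 1.06% in the knockdown libraries, against 0.518%, 0.685% and 0.298% in the controls. These 3 shares did not overlap between the groups, and each had an exact 2-sided permutation p of 0.1, the smallest that 3 against 3 libraries allow. The shares of a library sum to a fixed total, so the lower LGALS1 share mirrors the other shares and is not a separate result. The LGALS8 share was 0.549% ± 0.110 in the knockdown and 0.569% ± 0.187 in the controls (SD, n = 3 each, exact permutation p = 0.9). Without the length correction, as shares of CPM, the LGALS9 difference was 2.76 percentage points.

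**Figure D3:**
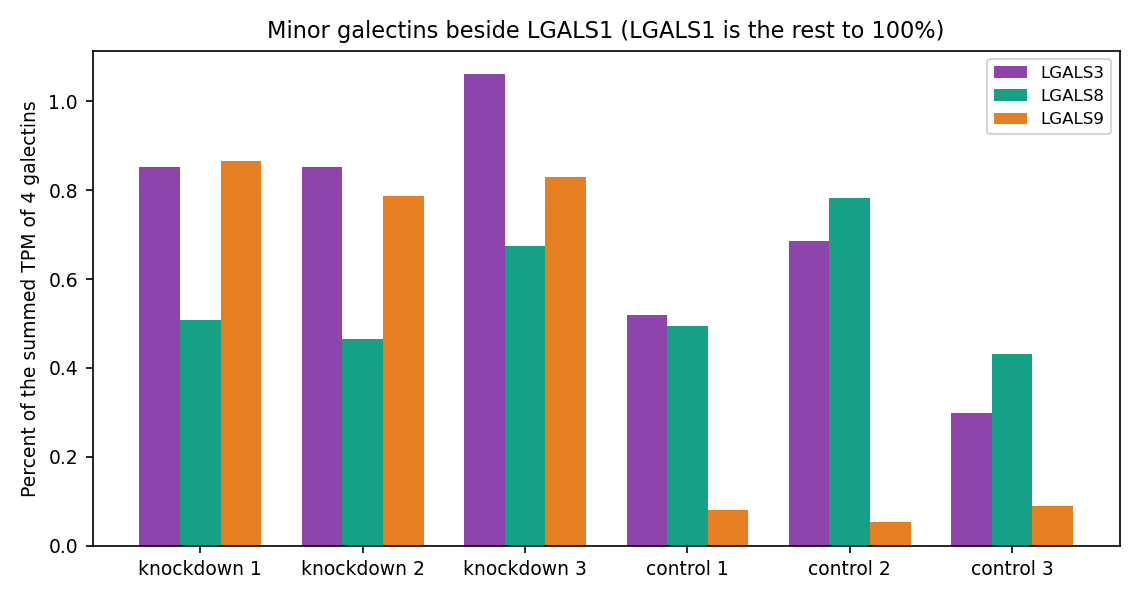
Percent of the summed TPM of LGALS1, LGALS3, LGALS8 and LGALS9 that came from the 3 minor galectins, by library, with the 3 knockdown libraries on the left and the 3 controls on the right. LGALS9 reaches 0.787% to 0.866% in the knockdown libraries and 0.0541% to 0.0887% in the controls, while LGALS8 overlaps between the groups.

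The other 13 genes of the family were low or listed at 0. A total of 6, LGALS9C, LGALS13, LGALS14, LGALS16, CLC and GRIFIN, were listed at 0 TPM in all 6 libraries, and 3 of the 13, LGALSL, LGALS4 and LGALS7B, were in the count table. LGALSL, which encodes a galectin-like protein that does not bind lactose, was the most abundant of these, at 8.98, 9.68 and 9.68 CPM in the knockdown libraries, against 9.53, 9.25 and 9.55 CPM in the controls. Its log2 fold change was 0.00 (edgeR adjusted p = 0.998), with a sign that turned in 13 of 17 alternatives.

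LGALS7B, one of a pair of near-identical genes for the epithelial galectin-7, had 13, 15 and 27 counts in the knockdown libraries, against 0 in each control. Set against a floor of 3 counts over the control group, its CPM was at least 8.77-fold higher in the knockdown, and the edgeR adjusted p was 0.0550. It shared 66.3% of its 31-base words with LGALS7, which was listed at 0.0822 TPM in knockdown library 2 and at 0 in the other 5, so the split between them is uncertain. LGALS4, a galectin of the gut lining, had 34, 14 and 25 counts in the knockdown libraries, against 7, 0 and 0 in the controls (edgeR adjusted p = 0.237). LGALS2 was listed at 0.283, 0.0764 and 0.477 TPM in the knockdown libraries and at 0 in the controls, and LGALS12 at 0.0209 TPM in control library 1 and at 0 elsewhere.

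Among genes that make the glycans galectins bind, those called were lower in the knockdown. Of 18 tested enzymes of N-acetyllactosamine and glycan branching, of 21 listed, 3 fell and 0 rose, beside 3.72% of all genes called lower, and the median log2 fold change was -0.33, against 0.03 over all genes tested. B4GALT2, which adds galactose to N-acetylglucosamine, fell by 0.81 on the log2 scale (41.8 ± 1.37 CPM in the knockdown and 73.2 ± 3.64 CPM in controls, SD, n = 3 each, edgeR adjusted p = 0.0129). GCNT1, which starts the branched core of O-glycans, stood at 2.68, 2.47 and 2.38 CPM in the knockdown libraries, against 7.50, 14.1 and 8.64 CPM in the controls, and fell by 2.01 (edgeR adjusted p = 0.0146). MGAT4A, which starts a further branch of N-glycans, fell by 1.71 (3.35 ± 0.670 CPM in the knockdown and 10.9 ± 5.31 CPM in controls, edgeR adjusted p = 0.0399), a call made in 7 of 17 alternatives. In all 15 of the 18 fold changes were negative, 7 with an unadjusted p under 0.05, which 26.0% of all genes reached in either direction, and 6 called by DESeq2, which called 8.4% of all genes lower. No enzyme had an unadjusted edgeR p under 0.05 in the other direction, DESeq2 called 0 higher and limma-voom with quality weights 1. Leaving out 1 library at a time, 0 to 8 were called lower, the most without control library 2, where 13.8% of all genes were called lower.

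Sialyltransferases cap galactose with sialic acid, and sialic acid in the alpha-2,6 linkage blocks the binding of several galectins. Of 10 tested, of 12 listed, edgeR called 0 in either direction, 3 had an unadjusted p under 0.05, all lower, DESeq2 called 0 and limma-voom with quality weights 2, both lower. Over all genes 26.0% reached an unadjusted p under 0.05 in either direction, and limma-voom called 19.1% in either direction and 10.4% lower. With 10 enzymes tested these counts are no result about the family, and leaving out 1 library at a time 0 to 1 were called lower. The median log2 fold change was -0.51. The 3 with the smallest p were ST3GAL1 (-0.60, edgeR adjusted p = 0.161), ST3GAL4 (-0.50, adjusted p = 0.178) and ST3GAL3 (-0.81, adjusted p = 0.179), which make the alpha-2,3 linkage. The enzymes of the alpha-2,6 linkage to galactose were named after their values were seen, and had positive log2 fold changes that missed the threshold. In neither did the groups overlap, and 21.9% of all genes tested were higher in the knockdown without overlap. These values are no result about the linkage. ST6GAL1 was at 0.24 (18.6 to 19.7 CPM in the knockdown and 12.4 to 18.5 CPM in controls, edgeR adjusted p = 0.490). ST6GAL2, near the limit of detection, was at 1.56 (0.372 to 0.484 CPM in the knockdown and 0 to 0.221 CPM in controls, edgeR adjusted p = 0.342).

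The list of proteins known to bind galectins, mostly of the cell surface and matrix, held 28 genes, all tested. Of these, 2 rose and 1 fell, a share of 10.7%, against 8.31% of all genes. The median log2 fold change was 0.11. ITGA6, the integrin alpha-6 chain of laminin receptors, rose in the knockdown (199.5 ± 3.47 CPM against 93.3 ± 21.5 CPM in controls, log2 fold change 1.10, edgeR adjusted p = 0.0184). LRP1, a large endocytic receptor, rose as well (373 ± 12.1 CPM against 195 ± 45.1 CPM in controls, 0.94, edgeR adjusted p = 0.0287). ALCAM, an adhesion molecule that galectin-8 binds, fell (70.8 ± 6.40 CPM in the knockdown and 168 ± 38.5 CPM in controls, -1.24, edgeR adjusted p = 0.0141). Leaving out 1 library at a time, 0 to 7 were called higher and 0 to 6 lower. The most came without control library 2, where 13.9% of all genes were called higher and 13.8% lower.

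Of 28 genes of the response to damaged lysosomes, all tested, 2 rose and 0 fell, a share of 7.14%, against 8.31% of all genes, and the median log2 fold change was -0.12. TRIM16, a ubiquitin ligase partner of galectin-3 on damaged membranes, stood at 84.1, 82.0 and 87.0 CPM in the knockdown libraries, against 50.2, 40.2 and 38.9 CPM in the controls, and rose by 0.97 on the log2 scale (edgeR adjusted p = 0.0129). ULK1, the kinase that starts autophagy, rose by 0.62 (62.9 ± 2.79 CPM in the knockdown and 40.8 ± 5.76 CPM in controls, edgeR adjusted p = 0.0430). The ULK1 call was made in 7 of 17 alternatives and was lost with DESeq2 size factors in edgeR (adjusted p = 0.0509). PLAA, a partner of the ATPase VCP, had a log2 fold change of -0.71 that missed the threshold (edgeR adjusted p = 0.0531). In the lower direction 5 had an unadjusted edgeR p under 0.05, which 26.0% of all genes reached in either direction. DESeq2 called 3 lower and limma-voom with quality weights 5, beside 8.4% and 10.4% of all genes. With DESeq2 size factors in edgeR 1 was called higher and 2 lower, beside 4.37% and 3.93% of all genes. Leaving out 1 library at a time, 0 to 4 were called higher and 0 to 7 lower. The highest counts came without control library 2, where 13.9% of all genes were called higher and 13.8% lower.

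Type I interferon response genes rose by up to 12.6-fold. Of 25, all tested, 11 rose and 0 fell, against a background of 4.59% called higher, and the median log2 fold change was 1.14. Earlier results of these data had already shown this rise, so it is no independent support. BST2, a membrane protein that tethers viruses, stood at 29.6, 27.2 and 26.6 CPM in the knockdown libraries, against 2.13, 2.68 and 1.73 CPM in the controls, a fold change of 12.6, beside the 11.7 of LGALS9 (edgeR adjusted p = 0.000981). XAF1, a pro-apoptotic interferon target, rose 8.84-fold (61.7 ± 4.12 CPM in the knockdown and 7.001 ± 2.76 CPM in controls, edgeR adjusted p = 0.00356). ISG15, a ubiquitin-like modifier, rose 2.98-fold (169 ± 5.47 CPM in the knockdown and 56.9 ± 9.29 CPM in controls, edgeR adjusted p = 0.00356). The other 8 that rose were IFIT2, OASL, MX2, IFIH1, IRF7, IFIT3, IFI44 and IFI44L, by 2.10-fold (IRF7) to 10.1-fold (MX2). No gene of the list had an unadjusted edgeR p under 0.05 in the lower direction. DESeq2 called 17 higher and 0 lower, beside 9.07% and 8.4% of all genes. Leaving out 1 library at a time, 4 to 21 were called higher, the most without control library 2, where 13.9% of all genes were called higher.

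**Figure D4:**
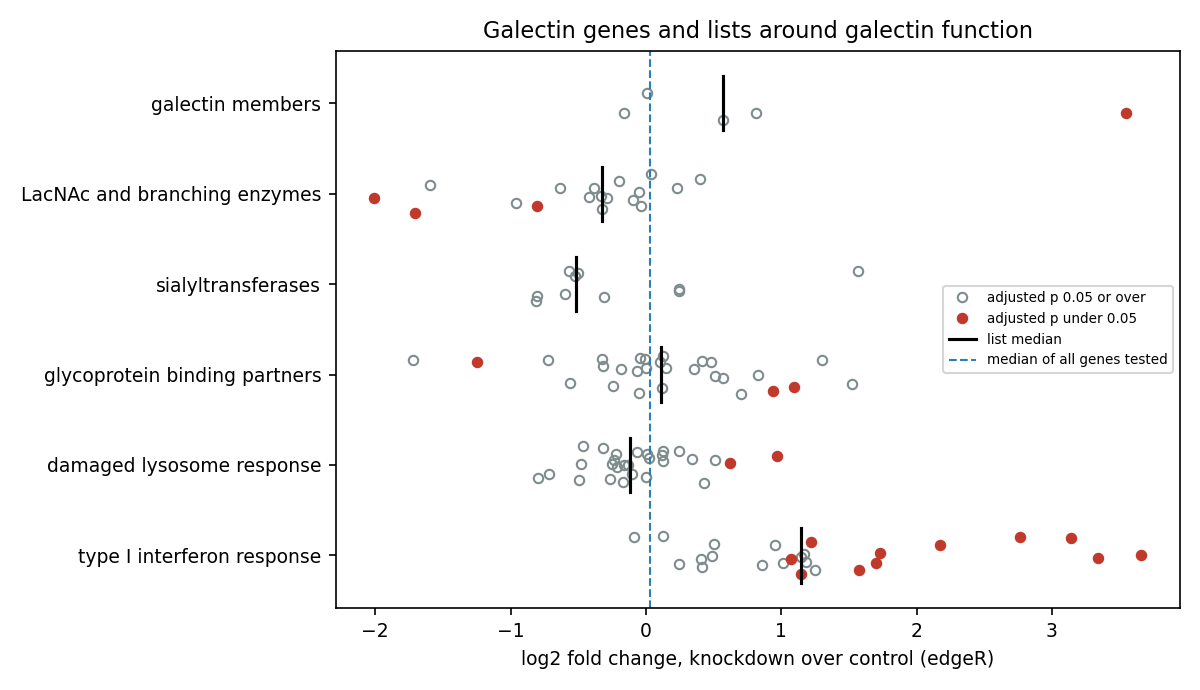
Log2 fold changes, knockdown over control, of the 5 genes and of 5 lists around galectin function, 1 circle per gene tested, filled where the edgeR adjusted p was under 0.05, with the list median as a bar and the median of all genes tested (0.03) as a dashed line. The interferon list lies to the right with a median of 1.14 and 11 filled circles, and the sialyltransferases lie to the left with a median of -0.51 and 0 filled.

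Some markers of other cells also differed between the groups, while the fibroblast, leukocyte and red blood cell sums overlapped. The 8 smooth muscle markers summed to 775 to 810 CPM in the knockdown libraries, against 227 to 521 CPM in the controls. Of these, 4, MYH11, TAGLN, ACTA2 and CNN1, rose (edgeR adjusted p of 0.0130 to 0.0335), beside 4.59% of all genes called higher. ACTG2 and DES were higher without overlap but missed the threshold, and MYLK overlapped between the groups (log2 fold change 0.36). SMTN was lower in every knockdown library than in every control (means of 55.2 and 68.6 CPM). Its log2 fold change of -0.31 was not called (edgeR adjusted p = 0.2896). The 8 fibroblast markers with counts, of 10 listed, summed to 267 to 268 CPM in the knockdown libraries, against 81.7 to 284 CPM in the controls, with LUM listed at 0 TPM throughout. Of 7 fibroblast markers tested all had positive log2 fold changes, and 1 rose, the growth factor receptor PDGFRB (11.9 ± 0.984 CPM in the knockdown and 5.03 ± 0.587 CPM in controls, 2.35-fold, edgeR adjusted p = 0.0195). The 6 endothelial markers with counts, of 8 listed, summed to 6.45 to 8.06 CPM in the knockdown libraries, against 3.10 to 4.38 CPM in the controls. All 6 were low, and 0 were called. CDH5 differed most (mean 2.84 CPM in the knockdown and 0.135 CPM in controls). ERG was level (1.20 and 1.16 CPM), and PECAM1 went the other way (0.520 and 0.776 CPM). Leukocyte markers other than those of macrophages were near the limit of detection, 3 of 10 with counts and summing to 2.47 to 4.78 CPM in the knockdown libraries, against 1.15 to 4.19 CPM in the controls, with MS4A1 and FCGR3A at 0. Red blood cell markers with counts, 3 of 5, summed to under 1 CPM in every library. VIM, a marker of the line and also of stromal cells, rose by 1.08 on the log2 scale (edgeR adjusted p = 0.0206). The host cells are mouse, the values are of human genes, and any removal of mouse reads is not stated. Whether mouse reads or the line itself gave these values was not tested. The part of any of these markers in the galectin results was not tested.

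The genes whose profile over the 6 libraries lay nearest to each member were found among 9874 tested genes with a mean of at least 10 CPM, as the root mean square difference of centred log2 CPM. Nearest to LGALS9 were CLU, which encodes the secreted chaperone clusterin (0.123), IGFL4 (0.171) and the interferon target XAF1 (0.198). CLU stood at 4724, 4434 and 4665 CPM in the knockdown libraries, against 645, 267 and 808 CPM in the controls, with control library 2 the lowest and control library 3 the highest control, the same order as LGALS9. Nearest to LGALS3BP were TEDC1 (0.0691), ZNF771 (0.0753) and HSD17B14 (0.0801), each with control library 2 well above the other controls. Nearest to LGALS3 were DDX51 (0.0932), CHIC2 (0.0964) and MTERF4 (0.103). Nearest to LGALS1 were MARCKSL1 (0.0334), GOLGA7 (0.0346) and the translation factor EEF1A1 (0.0360), and to LGALS8 VPS33A (0.0408), CMTR1 (0.0420) and POLR1A (0.0421). These genes were picked for their likeness over the same 6 libraries, so a shared order of the controls follows from the choice. The distances describe 6 libraries of 2 groups and carry no test.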

How the data were processed

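Bulk RNA-seq of 3 GANAB knockdown and 3 control libraries was used, with groups taken from the labels. Per the labels' protocols, RNA was extracted with TRIzol and libraries were made with a VAHTS Universal V6 kit. The submitters' processing notes name Salmon, fastp, DESeq2 and GRCh38, with no versions or order; the annotation, the strand setting and any removal of mouse reads are not stated there. The authors deposited estimated counts per gene, whole and not normalized, and TPM values, which are scaled for length and library total. Every estimated count in the deposited table was a whole number. Knockdown columns are headed with a knockout abbreviation, and each column was assigned by its group and number. GENCODE release 29 gave coordinates, overlaps and shared 31-base words.

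The members and the gene lists were chosen with earlier results of these data known. In R 4.3.3, edgeR 4.0.16 was run with its 2-sided quasi-likelihood test on all 6 libraries, with TMM scaling and filterByExpr, which left 19430 genes. Genes were called at an adjusted p under 0.05, with Benjamini-Hochberg adjustment over all genes. The fit was also run on simulated counts with the same spread in both groups, so the unequal spread of these groups was not covered. CPM uses TMM library sizes, and counting error is the square root of the count over the count and covers counting only. Shares of TPM were compared by an exact permutation test (scipy 1.17.1). The 17 alternatives were other scalings, filters and units, DESeq2 1.42.0, limma 3.58.1 (voom weights, and limma-trend on log2 TPM with 1 or 0.1 added, and on TPM rescaled without mitochondrial genes), a replicate block and each library left out. Within each pair of libraries of a group counts differed beyond sampling noise, with a chi-square per degree of freedom of 6.06 to 7.72 for knockdown pairs and 130 to 513 for control pairs. Named genes were GANAB, the members, the other family genes, list members called or among the 3 smallest p, and the 3 nearest profiles per member with a pseudocount of 0.5 CPM.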

Additional observations from a re-analysis of the deposited data

How the results depend on the processing

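Against 1614 genes called by edgeR, 1 of 5 members and 19 genes of the 5 lists, DESeq2 called 3676, 2 and 37, and limma-voom with sample quality weights called 3716, 2 and 42. On log2(TPM + 1) 828 genes were called, 751 higher and 77 lower, against 892 and 722 on counts; on log2(TPM + 0.1) 526 were called, and on log2(TPM + 1) with no filter 46, with 3 in the lists. With a filter of at least 5 CPM in 3 libraries 30 list genes were called, beside 1806 of all 11786 genes tested (15.3%, against 8.31% with the main filter). Leaving out 1 library at a time gave 62 to 5604 genes, 0 to 3 members and 4 to 55 list genes; the lowest counts came without a knockdown library (62, 115 and 88 genes without library 1, 2 and 3) and the highest without control library 2. The median log2 fold change of all genes was 0.23 and 0.28 on the 2 TPM scales with a filter, against 0.03 on counts, and 0.15 on log2(TPM + 1) rescaled without mitochondrial genes, an alternative chosen after seeing the data.

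The log2 fold change of LGALS9 was 2.93 to 3.92 over all 17 alternatives and 3.17 to 3.92 with 1 library left out. LGALS3 was at 0.78 with DESeq2 and 0.64 to 1.00 with 1 library left out, and LGALS3BP at 0.95 with voom weights and 0.31 to 1.06. LGALS1 changed sign to 0.0495 on log2(TPM + 1), with and without a filter, and on log2(TPM + 0.1), but stood at -0.0550 on TPM without mitochondrial genes. LGALS8 changed sign to -0.0183 with DESeq2 size factors in edgeR, to -0.0188 with DESeq2, to -0.0550 on TPM without mitochondrial genes, and ranged over -0.20 to 0.14 with 1 library left out. LGALSL was at -0.0261 with DESeq2 size factors, -0.0241 with DESeq2, -0.00859 with voom weights, -0.29 on log2(TPM + 1) with and without a filter, -0.32 on log2(TPM + 0.1), -0.38 on TPM without mitochondrial genes and -0.0424 to 0.0400 with 1 library left out. The LGALS9 share of galectin TPM differed by 0.753 points, by 2.76 as a share of CPM and by 0.734 to 0.773 with 1 library left out; the LGALS8 share changed sign to 0.0852 as a share of CPM and ranged over -0.0888 to 0.0869. The cause of these shifts was not tested.

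With the replicate number as a block 566 genes were called, 1 member was called, LGALS9 at 3.69 (edgeR adjusted p = 0.0153), and LGALSL stood at -0.000203. Deviations of same-numbered libraries from their group means had correlations of 0.00223 to 0.0218. The knockdown libraries varied little (coefficient of variation 10.7%, against 52.3% in controls), so these correlations cannot tell whether same-numbered libraries were paired. The labels do not say. Depth limits the control values of LGALS9 and all values of LGALS4 and LGALS7B.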

Other observations

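Of noncoding loci named for galectins, LGALSL-DT was listed at 0.210, 0.501 and 0.560 TPM in the knockdown libraries, against 0.208, 0 and 0 TPM in the controls, and LGALS8-AS1 at 0 TPM in all 6 libraries. AL359921.2, an antisense RNA within LGALS8, was listed at 6.17, 6.68 and 7.81 TPM in the knockdown libraries, against 0.311, 2.48 and 3.02 TPM in the controls. The groups did not overlap in TPM, and in CPM 21.9% of all genes tested were higher in the knockdown without overlap. The log2 fold change of AL359921.2, at 1.85, missed the threshold (edgeR adjusted p = 0.136).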
